A study of Mus musculus with 10 samples.

Results

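The genes described here are 9 genes of the complement system, C3, C4b, C2, Cfb, Cfd, C6, C7, Cfi and Cd55, taken by symbol from the 29268 genes listed for RNA of the mouse uterus. RNA sequencing had been carried out on whole uteri of 5 HSD17B1TG and 5 wild type (WT) female FVB/N mice at the age of 4 months. HSD17B1TG mice are heterozygous for a human HSD17B1 cDNA, which encodes an enzyme that converts estrone to the more potent estradiol, under a chicken beta actin promoter with a CMV enhancer that is active in nearly all tissues. Estrous cycles were absent in the transgenic females and the labels give no cycle phase for the WT females, so that genotype and cycle phase cannot be told apart. Each mouse is called by its genotype and a number, TG1 to TG5 for HSD17B1TG and WT1 to WT5 for WT.

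Complement is a cascade of plasma and tissue proteins that marks surfaces for removal and can perforate membranes. Its classical, lectin and alternative routes all meet at C3, whose cleavage needs a convertase built from C4 and C2 or from C3 and factor B. Regulators such as factor I and CD55 take the convertases apart or prevent their assembly. The liver makes most of the plasma pool, but in the rodent uterus C3 is also a classical estrogen-induced secretory product of the epithelium.

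Between 14817228 and 23271988 fragments were counted per mouse, so that a floor of 3 counts corresponded to 0.129 to 0.202 CPM (counts scaled to the library total). Mitochondrial genes took 1.94 to 7.57% of the counts in HSD17B1TG and 2.58 to 3.37% in WT mice. The mouse Hsd17b1 gene stood at 0.992 ± 0.291 FPKM (fragments per kilobase of transcript, scaled to sequencing depth; SD, n = 5) in HSD17B1TG and 0.918 ± 0.375 in WT mice, which does not check the genotype, because the transgene is human. Ltf, the estrogen-induced lactoferrin of the uterine epithelium, had 3017 ± 1678 FPKM in HSD17B1TG against 180 ± 166 in WT mice, and among the WT mice it was highest in WT4.

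The 250 bases before the start of C3 and of Cd55 are shown because C3 is the most abundant gene of the set, while Cd55 had the smallest fold change of the 6 genes of the set that could be tested. They are RefSeq sequences of the GRCm38.p6 reference, on the minus strand, and not of the FVB/N strain. They lie at chr17:57228137-57228386 for C3 and chr1:130462745-130462994 for Cd55. Capitals mark the letters GGTCA or TGACC, the half-site of an estrogen response element on either strand.
C3: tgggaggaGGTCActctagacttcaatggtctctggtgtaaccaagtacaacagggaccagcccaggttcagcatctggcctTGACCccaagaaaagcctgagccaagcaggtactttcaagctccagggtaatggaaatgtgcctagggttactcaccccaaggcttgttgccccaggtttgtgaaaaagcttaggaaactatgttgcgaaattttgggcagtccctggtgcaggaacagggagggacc
Cd55: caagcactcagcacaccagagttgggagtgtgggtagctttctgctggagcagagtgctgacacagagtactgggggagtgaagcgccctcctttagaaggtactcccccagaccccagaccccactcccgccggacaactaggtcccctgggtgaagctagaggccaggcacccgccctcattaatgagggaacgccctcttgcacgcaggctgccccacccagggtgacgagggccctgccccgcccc

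The C3 sequence held 2 such half-sites, from -242 to -238 and from -168 to -164 relative to the start, and the Cd55 sequence held 0. At least 1 half-site was found in 35.2% of the 32851 promoter sequences of the same length, so that a match in C3 is common. The whole palindromic element, the half-site and its reverse complement with 3 bases between them, which 0.0639% of the promoters held, and the letters TATAAA or their reverse complement TTTATA, which 12.4% held, were found in neither gene. Promoter sequences were matched for 5 of the 9 genes; for Cfd, C6 and C7, 1 half-site each was found, and C7 also held TTTATA. The RefSeq starts of C6 and C7 are not the starts given in the deposited annotation, while those of the other 3 genes are the same. C4b, C2, Cfb and Cfi had no entry.

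Of the 9 genes, 6 passed the filter on low counts, and 3 of them, C2, C4b and Cfi, were called higher in HSD17B1TG mice by the quasi-likelihood test of edgeR, with none called lower. A call required an adjusted p under 0.05 over 16993 genes, a fold change above 2 and a mean FPKM above 1 in either group. Across all genes tested, 2.16% were called higher and 2.08% lower, 4.24% in either direction. All 6 had a higher fitted level in HSD17B1TG, as had 50.2% of all genes tested, and the median log2 fold change of the 6 was 2.32 against 0.00 over all genes tested. With DESeq2, C3 and Cfb were called as well, giving 5 genes, where 4.17% of the 21712 genes with an adjusted p were called higher and 3.07% lower. In whole uterus, more cells of a type and more RNA per cell cannot be told apart, which holds for every value below.

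**Figure D1:**
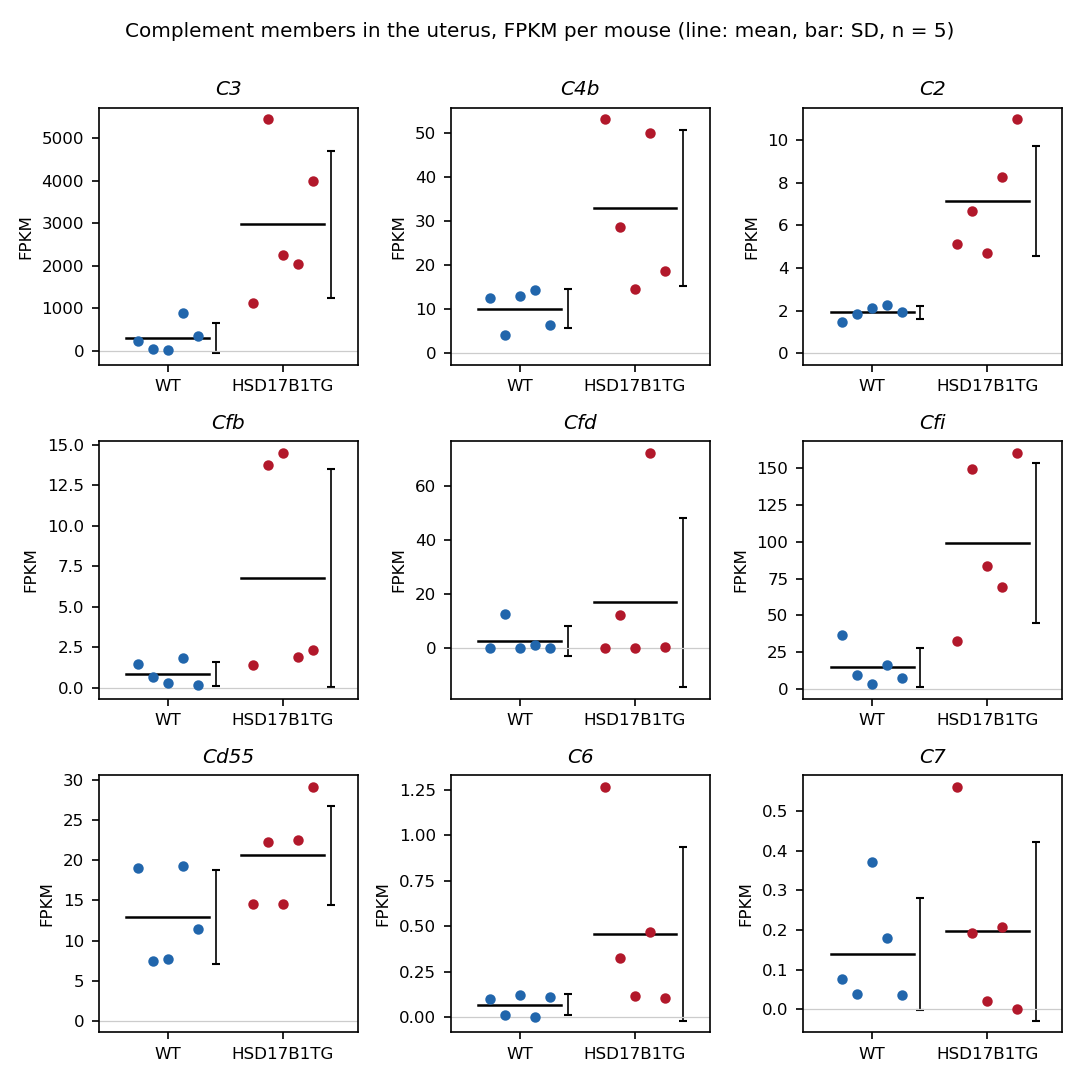
Level of each of the 9 complement genes in FPKM (vertical axis, linear, its own scale in each panel) in the 5 WT and 5 HSD17B1TG uteri; each point is a mouse, placed from left to right by its number, the line is the mean and the bar the SD. C3, C4b and C2 show no overlap between the genotypes, with every HSD17B1TG mouse above every WT mouse, as in 4.04% of all genes tested by edgeR. Cfb is high in TG2 and TG3 alone and Cfd is high in TG4, WT2 and TG2.

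C3 encodes the central component of the cascade, from which the C3a and C3b fragments are cut. Its level was 1130, 5446, 2243, 2044 and 3999 FPKM in TG1 to TG5, and 216, 31.5, 6.22, 889 and 347 FPKM in WT1 to WT5. Every HSD17B1TG mouse was above every WT mouse, though TG1 stood only slightly above WT4. The means were 2972 ± 1729 and 298 ± 359 FPKM, and the exact permutation test of log2(FPKM + 1) gave p = 0.00794, the smallest that 5 against 5 mice can give. Of all genes tested by edgeR, 4.04% were likewise above every WT mouse in all 5 HSD17B1TG mice. The same share is to be read beside each gene below that shows no overlap in FPKM.

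The edgeR test did not call C3, at a log2 fold change of 3.33 (SE 1.07, adjusted p = 0.0814). The spread among WT mice was wide, with 143-fold between the highest and the lowest, against 4.82-fold among HSD17B1TG mice. Without WT4 the log2 fold change was 4.31 and C3 was called (adjusted p = 0.0310, edgeR). With all mice it was called by DESeq2, at 3.32 (SE 0.86, adjusted p = 0.00282), and by limma on log2(FPKM + 1), at 4.55 (adjusted p = 0.0431), and on log2(FPKM + 0.1), at 4.60 (adjusted p = 0.0429), but not by limma voom, at 4.66 (adjusted p = 0.0698).

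C3 transcripts took 0.557 to 2.65% of all counts in HSD17B1TG mice. In TG2 the share was 2.65% (95% Wilson interval 2.64 to 2.66, which covers counting error only), and no other gene had more counts in that library. In WT mice the share ran from 0.00348% in WT3, where C3 ranked 6574th by counts, to 0.453% in WT4, where it ranked 10th. Of the FPKM summed over the 9 genes, C3 made up 90.1 to 95.9% in HSD17B1TG mice, but 18.8% in WT3, 46.7% in WT2, 75.2% in WT1, 92.6% in WT5 and 94.1% in WT4.

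The genes whose pattern over the 10 mice was most like that of C3 were Atp13a4, Slc34a2 and Fer1l4, with root mean square differences of centred log2 CPM of 0.60, 0.84 and 0.85. The median over all genes tested was 3.01. Slc34a2, a sodium phosphate cotransporter of epithelia, was called higher in HSD17B1TG (log2 fold change 4.08, SE 0.80, adjusted p = 0.0255, edgeR), and Atp13a4 (adjusted p = 0.0618) and Fer1l4 (adjusted p = 0.0663) were not.

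C4b encodes the C4 component, which is cleaved by the classical and lectin proteases and binds C2. Its level was 53.1, 28.6, 14.5, 49.95 and 18.7 FPKM in TG1 to TG5, and 12.4, 4.21, 12.9, 14.4 and 6.46 FPKM in WT1 to WT5. The groups did not overlap in FPKM, with TG3 just above WT4, and TG1 and TG4 far above the rest. On the log2 CPM scale TG3 (6.357) was just below WT4 (6.360). The log2 fold change was 1.71 (SE 0.44, adjusted p = 0.0471, edgeR). The call was close to the threshold and was kept without TG3 and without WT4 alone, with adjusted p up to 0.108 without any of the other 8 mice. With all mice it was lost in 4 of 8 alternative fits, with adjusted p of 0.0501 (limma on log2(FPKM + 1)) to 0.0545 (limma voom). C4a, its near-identical neighbour in the same region of chromosome 17, had 0.879 ± 0.480 and 0.462 ± 0.135 FPKM in HSD17B1TG and WT mice and was not called (adjusted p = 0.154, edgeR). How fragments that match both copies were counted is not given in the sources used here, so the split between C4a and C4b is uncertain.

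C2 encodes the protease that joins C4b in the classical convertase. Its level was 5.11, 6.70, 4.68, 8.26 and 10.99 FPKM in TG1 to TG5, and 1.47, 1.85, 2.10, 2.28 and 1.93 FPKM in WT1 to WT5. The WT mice were close together, with 1.55-fold between the highest and the lowest, and the lowest HSD17B1TG mouse was well above them. The log2 fold change was 1.89 (SE 0.26, adjusted p = 0.0149, edgeR), the 19th smallest p of all genes tested. C2 was called without any single mouse, with adjusted p of at most 0.0415.

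Cfb encodes factor B, the protease of the alternative convertase. Its level was 1.37, 13.8, 14.5, 1.91 and 2.32 FPKM in TG1 to TG5, and 1.45, 0.634, 0.263, 1.83 and 0.156 FPKM in WT1 to WT5. TG2 and TG3 stood far above the other HSD17B1TG mice, TG4 was just above WT4, and TG1 was below WT1 and WT4. Mitochondrial genes took 1.94 and 2.49% of the counts in TG2 and TG3, and 5.74 to 7.57% in TG1, TG4 and TG5. This share was 2.58 to 3.37% in the WT mice, and its part in the level of Cfb was not tested. The log2 fold change of 2.95 (SE 0.88) was not called (adjusted p = 0.0668, edgeR), although DESeq2 called it (adjusted p = 0.00318). In edgeR it was called without TG1 (adjusted p = 0.0396) and without WT4 (adjusted p = 0.0444). The genes with the most similar pattern were Trim58, Ugt1a7c and Rhbdl2 (0.62, 0.71 and 0.72, against a median of 1.96 over all genes tested), and none of them was called.

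Cfb and C2 lie 85 bases apart on chromosome 17, both on the minus strand. In the GENCODE M21 annotation the transcript of the readthrough gene Gm20547 shares 42.8% of the exon bases of C2 and 79.5% of those of Cfb. Gm20547 was not analysed here, and how fragments in the shared exons were assigned is not given in the sources used here. The high Cfb levels of TG2 and TG3 had no counterpart in C2, which was within the range of the other HSD17B1TG mice in TG2 and the lowest of the HSD17B1TG mice in TG3. The log2 ratio of Cfb to C2 counts was -1.17 ± 1.89 in HSD17B1TG and -2.13 ± 1.57 in WT mice, a difference of 0.96 that was within the spread between mice (adjusted p = 0.445 over 11 ratios, exact permutation test). The difference was 0.37 without TG3, 0.48 without WT5 and 0.52 without TG2, and at most 1.37 without any other mouse.

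Cfd encodes factor D, also called adipsin, which cleaves factor B and is made chiefly by adipocytes. Its level was 0.175, 12.2, 0, 72.2 and 0.348 FPKM in TG1 to TG5, and 0.0441, 12.5, 0.0673, 1.21 and 0 FPKM in WT1 to WT5. TG4 was highest, TG2 and WT2 were nearly equal, and most mice of either genotype were near 0. Cfd had too few counts in most mice to be tested by edgeR, and the exact permutation test gave p = 0.468. DESeq2, which fitted it, gave an adjusted p of 0.492.

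TG4 and WT2, the highest mice for Cfd, were also the highest and the second highest for 5 of the 14 adipocyte markers listed, Adipoq, Plin1, Cidec, Lep and Retn. Adipoq, the adipocyte hormone adiponectin, had 13.7 FPKM in TG4, 3.09 in WT2, 1.33 in TG2 and 1.33 in WT4, and at most 0.140 in the other 6 mice. Car3, the carbonic anhydrase abundant in fat, was the gene most like Cfd (root mean square difference 0.46, against a median of 3.22 over all genes tested), while the next most like, Aldh1a3 and Fabp4, were far less so at 2.26 and 2.44. Of the 15 markers in the list, 9 passed the filter, of which 6 had a higher fitted level in HSD17B1TG mice (median log2 fold change 1.10, 3 called). Their summed FPKM was 60.0 to 117 in HSD17B1TG mice, highest in TG5 (Cfd 0.348 FPKM), and 30.04 to 56.9 in WT mice, highest in WT2. Their mean log2 CPM was highest in TG4 (4.02) and, among the WT mice, in WT2 (2.76), and WT2 was below every HSD17B1TG mouse on both scales. The defining markers Adipoq and Plin1 were at or near 0 in most mice. The log2 CPM of Cfd minus the 9 markers differed by 0.53 between the genotypes (adjusted p = 0.810, exact permutation test) and its sign turned without TG2 (-0.17), TG4 (-0.67) or WT5 (-0.05). The part of fat in the dissected tissue was not tested.

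**Figure D2:**
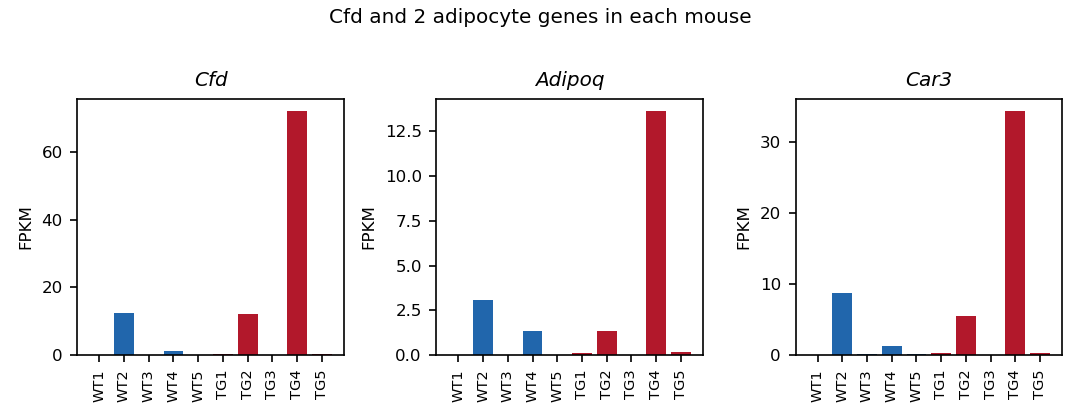
Level of Cfd and of the adipocyte genes Adipoq and Car3 in each of the 10 mice (FPKM, linear axes from 0; WT in blue, HSD17B1TG in red). All 3 genes are highest in TG4 (72.2, 13.7 and 34.4 FPKM) and next highest in WT2 (12.5, 3.09 and 8.71 FPKM).

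C6 and C7 encode terminal components that follow C5b into the membrane attack complex, and both were close to the detection floor. C6 had 84, 20, 8, 27 and 6 counts in TG1 to TG5 and 9, 1, 7, 0 and 8 counts in WT1 to WT5. TG1, TG2 and TG4 were above every WT mouse, and TG3 and TG5 were within the WT range. The means were 0.458 ± 0.477 and 0.0699 ± 0.0577 FPKM (exact permutation test, unadjusted p = 0.0397), and C6 passed neither the filter on low counts nor the FPKM limit. DESeq2, which fitted it, gave a log2 fold change of 2.72 (SE 0.88, adjusted p = 0.0211), which missed a call through the FPKM limit alone. The difference in mean log2(FPKM + 1) was 0.39, or 0.22 without TG1, and its p was 0.0794 in the exact permutation test when TG1, TG2, TG4, WT1, WT2 or WT4 was left out in turn.

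C7 had 28, 9, 1, 9 and 0 counts in TG1 to TG5 and 5, 2, 16, 10 and 2 counts in WT1 to WT5. The groups overlapped fully (exact permutation test, p = 0.714), and without TG1 the difference in mean log2(FPKM + 1) turned from 0.06 to -0.04. The genes most like C7 were Nxpe5, Zfp365 and Olfr78 (0.35, 0.52 and 0.53, against a median of 1.29 over all genes tested). The log2 ratio of C6 to C7 counts was 2.08 ± 1.04 in HSD17B1TG and -0.74 ± 2.35 in WT mice, a difference of 2.83 that missed the threshold (adjusted p = 0.0698, exact permutation test). It passed without WT5 (3.45, adjusted p = 0.0349) and when 2 counts rather than 0.5 were added to each gene (1.94, adjusted p = 0.0349). With so few counts, a smaller change in C6 or C7 was not detectable at this depth.

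Cfi encodes factor I, the protease that inactivates C3b and C4b together with a cofactor. Its level was 32.3, 150, 83.8, 69.2 and 160 FPKM in TG1 to TG5, and 36.8, 9.20, 3.30, 16.3 and 7.63 FPKM in WT1 to WT5. All HSD17B1TG mice but TG1 were above every WT mouse, and TG1 was just below WT1. The log2 fold change was 2.76 (SE 0.64, adjusted p = 0.0376, edgeR; exact permutation test, p = 0.0159). The call was lost without TG2, TG4, TG5, WT2, WT3 or WT5, with adjusted p of at most 0.0947.

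Cd55 encodes the decay-accelerating factor, a membrane protein that dissociates the convertases. Its level was 14.6, 22.2, 14.6, 22.6 and 29.2 FPKM in TG1 to TG5, and 19.0, 7.45, 7.73, 19.3 and 11.4 FPKM in WT1 to WT5. The groups overlapped, since WT1 and WT4 were above TG1 and TG3. The log2 fold change of 0.67 (SE 0.32) was not called (adjusted p = 0.209, edgeR; exact permutation test, p = 0.0952). Its paralogue Cd55b was near 0 in all mice, at 0.0455 ± 0.0656 and 0.0397 ± 0.0575 FPKM.

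By mean level per length, C3 was first in both groups, although in WT3 C3 (6.22 FPKM) was below C4b (12.9) and Cd55 (7.73). In HSD17B1TG mice it was followed by Cfi (99.1 ± 54.5 FPKM), C4b (33.0 ± 17.7), Cd55 (20.6 ± 6.18), Cfd (17.0 ± 31.3), C2 (7.15 ± 2.57), Cfb (6.77 ± 6.73), C6 and C7. Only the steps from C3 to Cfi and from Cfb to C6 were free of overlap in that order. In WT mice Cfi (14.7 ± 13.3), Cd55 (12.98 ± 5.86) and C4b (10.1 ± 4.46) followed C3 and did not differ beyond their spread, and each neighbouring pair of the 9 genes overlapped.

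Within a mouse, C3 was shifted relative to the regulator Cd55. The log2 ratio of C3 to Cd55 counts was 7.10 ± 0.66 in HSD17B1TG and 3.23 ± 2.35 in WT mice, a difference of 3.87 (adjusted p = 0.0218 over 11 ratios, exact permutation test). All 5 HSD17B1TG mice were above every WT mouse in this ratio. The ratio of C3 to C4b differed by 2.94, which did not pass (adjusted p = 0.131, exact permutation test), with TG1 and TG4 within the WT range. Leaving out a mouse gave 1.79 (without WT3) to 3.54.

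**Figure D3:**
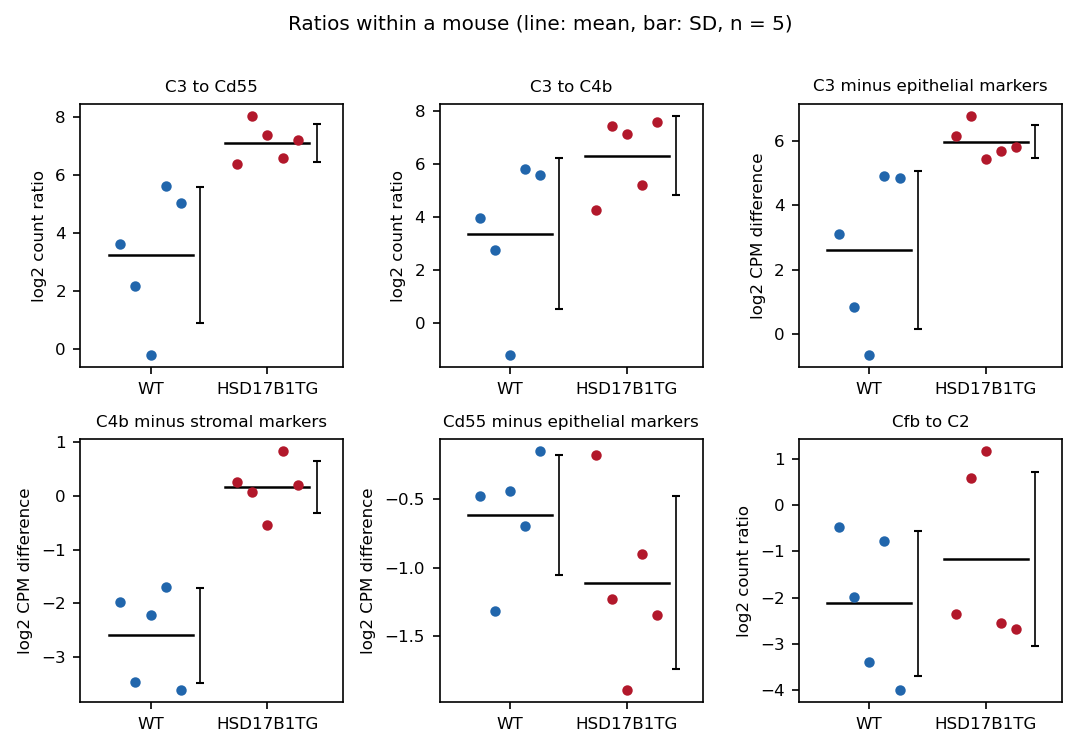
Ratios of complement genes within each mouse, on a log2 scale: count ratios of gene pairs, and log2 CPM of a gene minus the mean log2 CPM of cell type markers; each point is a mouse, the line is the mean and the bar the SD. The HSD17B1TG mice lie above every WT mouse for C3 to Cd55, C3 minus the epithelial markers and C4b minus the stromal markers, and overlap with WT mice in the other panels.

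Markers of cell types of the uterus were set beside the complement genes. All 20 epithelial markers had a higher fitted level in HSD17B1TG mice (median log2 fold change 1.24, 2 called), their summed FPKM ranging from 944 to 4284 in HSD17B1TG and from 677 to 2077 in WT mice. The epithelial adhesion molecule Epcam had 303 ± 147 and 129 ± 73.3 FPKM. Of the 6 markers of endometrial glands, also epithelial, 3 passed the filter, and 0 of these had a higher fitted level in HSD17B1TG mice (median -0.35, none called), with summed FPKM of 12.7 to 39.4 in HSD17B1TG and 15.8 to 99.5 in WT mice. Of the 15 stromal markers, 13 had a lower fitted level (median -1.18, 5 called lower), with summed FPKM of 725 to 2535 in HSD17B1TG and 2110 to 2994 in WT mice, and Pdgfra fell from 42.9 ± 18.5 to 10.8 ± 4.57 FPKM (adjusted p = 0.0219, edgeR).

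Relative to the epithelial markers, C3 was 3.38 log2 units higher in HSD17B1TG mice, at 5.99 ± 0.52 against 2.61 ± 2.47, in all 5 mice above every WT mouse (adjusted p = 0.0218, exact permutation test). Cfb relative to the same markers was 1.48 higher (adjusted p = 0.150) and Cd55 was 0.49 lower (adjusted p = 0.233, exact permutation test), both with overlap. C4b relative to the stromal markers was 0.17 ± 0.49 in HSD17B1TG and -2.60 ± 0.89 in WT mice, again with all 5 above every WT mouse (difference 2.77, adjusted p = 0.0218, exact permutation test). Part of this difference is the change in the stromal markers, whose mean log2 CPM was 7.21 in HSD17B1TG and 8.32 in WT mice. The log2 CPM of C4b alone was 1.66 higher in HSD17B1TG mice. Markers of smooth muscle, mesothelium and macrophages were high in TG1 and TG4, the mice with the most C4b. Of the 14 smooth muscle markers, 13 had a higher fitted level in HSD17B1TG mice (median 0.55, none called), and their mean log2 CPM was highest in TG1 (8.98), WT4 (8.72) and TG4 (7.97). Of the 8 mesothelium markers, 7 had a higher fitted level (median 1.57, none called), and their mean log2 CPM was highest in TG4 (5.15), TG2 (4.07) and TG1 (3.996) and, among the WT mice, in WT4 (3.59). The mean log2 CPM of the macrophage markers was highest in TG1 (4.90) and TG4 (4.59). Among the WT mice it was 4.20 in WT1, 4.14 in WT3, 4.13 in WT4, 3.97 in WT2 and 3.90 in WT5. Within the HSD17B1TG group, the endothelial, neutrophil and stromal markers were also highest in TG1 and TG4. The endothelial markers had 5.56 in TG1 and 5.26 in TG4, and among the WT mice were highest in WT5 (5.81). WT3, second highest of the WT mice in C4b, was lowest of all mice for smooth muscle (5.22) and mesothelium (-0.10), and WT5, second lowest of the WT mice in C4b, had 7.33 and 3.18. The part of any of these cells in the level of C4b was not tested. C7 relative to the stromal markers differed by 1.18 (adjusted p = 0.175, exact permutation test). The sources of C3 and C4b within the tissue were not measured.

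Estrogen-induced genes of the uterine epithelium were set beside C3. Of 14 such genes tested, other than C3, all had a higher fitted level in HSD17B1TG mice (median log2 fold change 2.23, 3 called). Their summed FPKM was 3543 in TG1 and 9768 to 22989 in TG2 to TG5, and in WT mice it was 5644 in WT4, 2039 in WT1 and 396 to 1016 in WT2, WT3 and WT5. WT4 was thus above TG1 here, and the same mice were the nearest of the genotypes in C3, while WT3 was lowest in both. The orders differed elsewhere, since WT5, second highest of the WT mice in C3, was second lowest of them in these genes, and the highest mouse was TG2 for C3 and TG5 for these genes. Whether C3 and these genes vary together was not tested.

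Hepatocyte markers were used to look for plasma-protein genes of the liver. The defining marker Alb had 2 counts in TG2 and 0 in the other 9 mice, Apoa1 had at most 3 counts in any mouse, and Fga had 0 counts in all HSD17B1TG mice. Of the 10 markers, 9 were listed and 2 passed the filter, with a summed FPKM of 26.1 to 224 in HSD17B1TG and 0.238 to 9.20 in WT mice. These 2 were the antitrypsin genes Serpina1a and Serpina1c, at 16.0 ± 7.92 and 69.2 ± 73.1 FPKM in HSD17B1TG and 1.13 ± 1.60 and 2.07 ± 2.61 in WT mice.

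Across a wider list of 56 complement genes, written by role, 53 were listed, 40 were tested, 5 were called higher and 1 lower in HSD17B1TG mice, where 2.16% of all genes tested were called higher and 2.08% lower. Their median log2 fold change was 0.09, against 0.00 over all genes tested. Without the 9 genes above, 2 of 34 were called higher and 1 lower, to be read against the same shares of 2.16% and 2.08%, and the median was -0.02. With the 9 genes counted in, the higher genes lay among the components and convertases (2 of 6, median 1.80), the soluble regulators (2 of 7, median 1.204) and the receptors (1 of 7, median -0.13). The called components, C4b and C2, and Cfi of the soluble regulators are among the 9 genes. The other components tested, C4a (log2 fold change 0.92) and Cfp (-0.03), were not called.

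**Figure D4:**
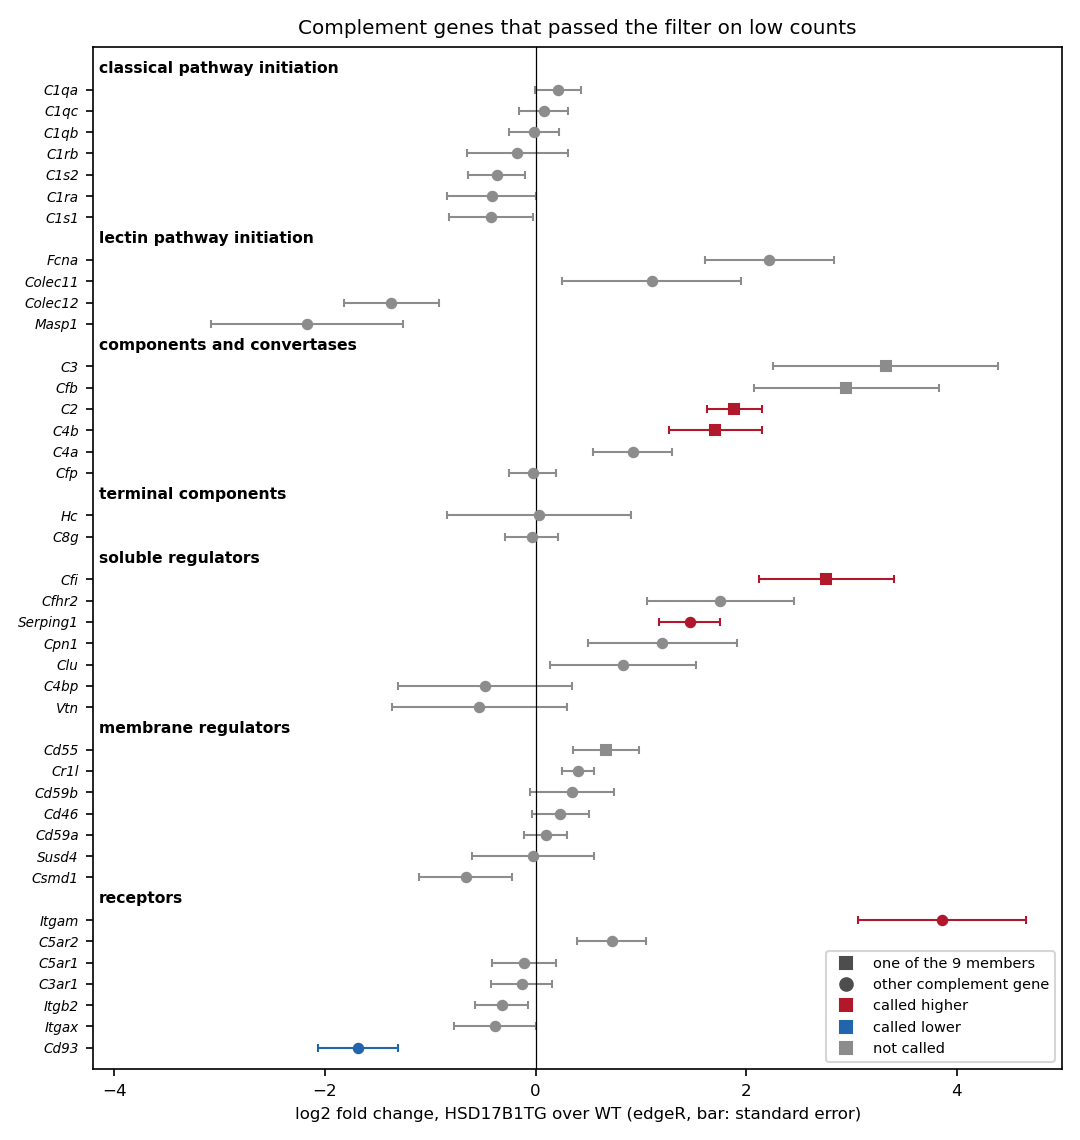
Log2 fold change of HSD17B1TG over WT for the 40 complement genes that passed the filter on low counts, in groups by role (horizontal axis; bars are the standard error of the edgeR fit; squares are the genes described above, circles the other genes). Genes of the convertases and soluble regulators lie mostly to the right of 0, while the 7 genes of classical initiation lie between -0.42 and 0.21. All genes of the components and convertases but C4a and Cfp are squares.

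The initiating genes of the classical pathway were not called in either direction. C1qa, C1qb and C1qc, the chains of C1q, which tissue macrophages make, had 79.1 ± 24.8, 42.1 ± 12.1 and 27.4 ± 9.97 FPKM in HSD17B1TG and 67.9 ± 14.4, 42.4 ± 11.9 and 25.8 ± 4.57 in WT mice. The proteases C1ra and C1s1 had 16.7 ± 10.5 and 39.5 ± 24.0 FPKM in HSD17B1TG and 22.2 ± 7.29 and 52.8 ± 16.5 in WT mice. Of the 13 macrophage markers, 8 had a higher fitted level in HSD17B1TG mice (median log2 fold change 0.13), with Cd68 called higher and Mertk called lower. The macrophage lysozyme Lyz2 had 111 ± 42.4 and 147 ± 55.7 FPKM. Masp1, a protease of the lectin pathway, had 0.252 ± 0.186 and 1.13 ± 1.04 FPKM (adjusted p = 0.161, edgeR).

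Among the remaining components, Cfp, the properdin that stabilizes the alternative convertase, had 12.8 ± 2.99 FPKM in HSD17B1TG and 12.97 ± 3.10 in WT mice, a log2 fold change of -0.03 (SE 0.22). Hc, which encodes C5, was near the floor with at most 23 counts in any mouse. Of the terminal components, C8g alone passed the filter besides Hc, with 2.14 ± 0.523 FPKM in HSD17B1TG and 2.18 ± 0.226 in WT mice, and it was not called (adjusted p = 0.945, edgeR).

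Of the soluble regulators, Serping1 rose besides Cfi. Serping1, the C1 inhibitor, had 266, 561, 351, 429 and 681 FPKM in TG1 to TG5 and 174, 125, 166, 123 and 240 FPKM in WT1 to WT5, with no overlap between the groups (log2 fold change 1.46, SE 0.29, adjusted p = 0.0256, edgeR). The call of Serping1 was lost without TG2, TG4, TG5, WT1, WT2 or WT3, with adjusted p of at most 0.0682. Clu, clusterin, had 122 ± 82.1 and 68.8 ± 70.0 FPKM and was not called (adjusted p = 0.484, edgeR).

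The membrane regulators gave no call. Cr1l, also called Crry, the main rodent surface regulator of C3 cleavage, had 8.08 ± 1.22 FPKM in HSD17B1TG and 6.10 ± 0.999 in WT mice (log2 fold change 0.40, SE 0.15, adjusted p = 0.119, edgeR). Cd59a, which blocks the membrane attack complex, had 12.7 ± 1.94 and 11.8 ± 2.96 FPKM, and Cd46, whose expression is mostly confined to the testis in mice, had 0.716 ± 0.229 and 0.607 ± 0.122 FPKM. The log2 fold change of the 7 genes of this group had a median of 0.23.

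Among the receptors, C3ar1 and C5ar1, for the C3a and C5a fragments, had 2.14 ± 0.498 and 2.43 ± 1.00 FPKM in HSD17B1TG and 2.34 ± 0.881 and 2.61 ± 0.538 in WT mice, and neither was called. Vsig4, a macrophage receptor for C3b, had at most 20 counts in any mouse. Cd93, an endothelial surface protein once proposed as a C1q receptor, was called lower, at 5.73 ± 2.35 FPKM in HSD17B1TG and 18.3 ± 7.69 in WT mice (log2 fold change -1.68, SE 0.38, adjusted p = 0.0346, edgeR). The call was lost without TG2, TG4, TG5, WT1, WT2, WT3 or WT5, with adjusted p of at most 0.0795. Of the 10 endothelial markers, 2 had a higher and 8 a lower fitted level in HSD17B1TG mice (median log2 fold change -0.58, none called), with summed FPKM of 39.0 to 144 in HSD17B1TG and 66.7 to 152 in WT mice. Their part in the level of Cd93 was not tested.

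Itgam and Itgb2 encode the chains of complement receptor 3, which myeloid cells carry, and went apart. Itgam had 15.2, 40.0, 22.6, 22.7 and 52.8 FPKM in TG1 to TG5 and 1.24, 0.985, 0.457, 7.32 and 0.583 FPKM in WT1 to WT5, with no overlap between the groups (log2 fold change 3.86, SE 0.80, adjusted p = 0.0279, edgeR). Itgb2, the shared beta chain, had 3.31 ± 0.727 and 4.12 ± 1.25 FPKM (log2 fold change -0.32, SE 0.25, adjusted p = 0.449, edgeR). In HSD17B1TG mice Itgam was thus at a higher level per length than its partner, and in WT mice, WT4 apart, at a lower one. In GENCODE M21 the readthrough gene Gm49368 shares 68.7% of the exon bases of Itgam, and it had at most 12 counts in any mouse. Of 12 neutrophil markers, 5 passed the filter and 4 of these had a higher fitted level in HSD17B1TG mice (none called higher, 1 called lower), with summed FPKM of 8.93 to 14.9 in HSD17B1TG and 3.27 to 6.04 in WT mice. Among them Ly6g ran from 1.25 to 9.42 FPKM in HSD17B1TG and from 0 to 3.91 in WT mice and S100a9 from 0.551 to 7.71 and from 0 to 1.11. Il1r2, the marker called lower, ran from 0.0836 to 0.455 FPKM in HSD17B1TG and from 0.414 to 2.40 in WT mice. Csf3r ran from 0.808 to 1.28 and from 0.349 to 1.33, and Mmp9 from 0.436 to 4.31 and from 0.263 to 1.23. Retnlg, Camp, Ngp, Stfa2l1 and Cxcr2 were at most at 0.271 FPKM in any mouse. Of 8 eosinophil markers, 2 passed, both with a higher fitted level and neither called, and their summed FPKM of 49.1 to 328 in HSD17B1TG and 6.84 to 81.5 in WT mice was nearly all Alox15, while Siglecf, Epx, Prg2 and Ccr3 were at most at 0.299 FPKM in any mouse. The part of these cells in the level of Itgam was not tested. The call of Itgam was lost without TG2, TG4, TG5, WT1, WT2, WT3 or WT5, with adjusted p of at most 0.0724.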

How the data were processed

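Uterine RNA of 10 mice had been sequenced as paired ends of 150 bp. Per the methods of the study and the labels, the authors aligned the reads by HISAT2 2.0.5 against the mouse genome and its Ensembl annotation, and deposited raw counts per gene, FPKM values, and a normalized signal, the counts divided by DESeq2 size factors, which was used only to check the scaling. The counting program, its strand setting and the treatment of fragments that match several genes were not given in the sources used here. Columns of the authors' own comparison (log2 fold changes and p-values) and the deposited lists of changed genes were not used.

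The genes and lists were chosen with earlier results of these data known. Counts were tested with edgeR 4.0.16 (filterByExpr, TMM, quasi-likelihood) in R 4.3.3, adjusted by the Benjamini-Hochberg method over 16993 genes, at the fold and FPKM limits of the study. edgeR rather than DESeq2, which the study used, was the main test. The fits were checked on simulated data. Single genes and 11 ratios within a mouse (0.5 counts added; for marker lists, mean log2 CPM with a prior count of 2) were tested by two-sided exact permutation of the mice over 252 assignments, on log2(FPKM + 1) for genes. Permutation p-values of single genes were not adjusted, and those of the 11 ratios were adjusted by the Benjamini-Hochberg method. Alternatives were DESeq2 1.42.0, limma 3.58.1, other normalizations, filters, pseudocounts and thresholds, and leaving out each mouse. Wilson intervals and the floor of 3 counts cover counting error only.

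The text names the 9 genes, the called genes of the complement list, 20 complement genes whatever their result (Serping1 and Itgam were also called), the 3 genes most like C3, Cfb, C7 and Cfd, and reference genes; Car3, Plin1, Apoa1, Fga, Serpina1a, Serpina1c, Gm49368, C8g, Fcna and single cell type markers were named after their values were seen. A further complement gene and the results that need it, 1 of the 11 ratios among them, are not reported here. Coordinates are those of GRCm38, and those of all 9 genes were the same in GENCODE M21.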

Additional observations from a re-analysis of the deposited data

Results flagged for a closer look

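In 3 of the 82 groups of 5 mice that were looked at, a single mouse stood far from the others on the log2(FPKM + 1) scale; chance alone gives about 1 in 20 groups. Itgam was highest in WT4 among the WT mice, at 3.06, C5ar1 was highest in WT3, at 2.18, and Cd55b was highest in TG3 among the HSD17B1TG mice, at 0.212, where it had 5 counts. None of the 9 complement genes was among these.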

How the results depend on the processing

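With DESeq2, and with an adjusted p under 0.1 in edgeR, 5 rather than 3 of the 9 genes were called higher, and of the complement list 8 rather than 5 higher and 2 rather than 1 lower; the cause was not tested. The other normalizations, filters and limma tests left these counts within 1.5 times. Leaving out a mouse gave 1 to 5 of the 9 genes higher and 0 lower, and 1 to 8 of the list higher and 0 to 2 lower: 1 of the 9 without TG2, TG4, TG5, WT2, WT3 or WT5 and 5 without WT4; 1 or 2 of the list without those 6 mice or WT1, and 8 without WT4. Over all genes, 38 (without TG5 or WT2) to 888 (without WT4) were called higher. C4b lost its call with upper quartile scaling (adjusted p = 0.0530), without a filter (0.0526), with voom (0.0545) and with limma on log2(FPKM + 1) (0.0501). No scaling moved the median of all genes by over 0.1.

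The difference in the C6 to C7 ratio was 1.94 with 2 counts added and 1.91 to 3.45 without a mouse. That in mean log2(FPKM + 1) of C7 was -0.0424 to 0.127 without a mouse, reversing to -0.0424 without TG1. Cfd relative to adipocyte markers ranged from -0.67 to 1.54, reversing to -0.173 without TG2, -0.67 without TG4 and -0.0523 without WT5. With all 14 markers listed, an alternative chosen after seeing the data, it kept its direction. Of the other named complement genes tested, Fcna was called in 6 of 18 alternative fits (DESeq2, the 3 limma tests, without TG1 and without WT4), and the remaining 17 in 0. No paired analysis was run, because the sources used here do not say whether the animal numbers of the 2 genotypes mark shared litters, days or batches. The counts of C6, C7 and, in most mice, Cfd limit what could be seen in them.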

Other observations

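Fcna, ficolin A, a lectin pathway recognition protein made by macrophages, had 13.1 ± 5.80 FPKM in HSD17B1TG and 2.79 ± 2.50 in WT mice. It was singled out after its values were seen. It was above every WT mouse in 4 of 5 HSD17B1TG mice (log2 fold change 2.22, SE 0.61), and was not called by edgeR (adjusted p = 0.0546) but was by DESeq2 (adjusted p = 0.00297). The C1q genes, also products of macrophages, were not called in the same mice.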
